A study of Mus musculus with 2 samples.

Results

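The miR-26 family of the mouse is encoded by 3 hairpin genes, Mir26a-1, Mir26a-2 and Mir26b, and their levels are described here in the newborn forebrain. The members were chosen by gene symbol, as the rows of the deposited tables whose Ensembl identifiers carry these symbols, and all 3 were found among the 1973 genes of the tables. Small RNA was sequenced from the whole forebrains of 2 mice of strain B6NCrl at postnatal day 0. They form 1 untreated group of 2 biological replicates, pup 1 and pup 3, so the design holds no contrast between conditions. The labels list the same donor record for both pups and no sex.

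MicroRNAs are cut from hairpin precursors, and either arm of a hairpin can be loaded into an Argonaute protein, where bases 2 to 8, the seed, pair with target messages. The miR-26 hairpins lie inside genes of small CTD phosphatases, enzymes that remove phosphate from the tail of RNA polymerase II and that the repressor REST uses in silencing neuronal genes. The miR-26 family is known to target Ctdsp2, one of these phosphatases, during neural differentiation, and is also known for limiting cell growth.

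Each hairpin lay in an intron of its phosphatase gene and on the same strand, and none overlapped an exon of a coding transcript of that gene (GENCODE M21, GRCm38). Mir26a-1 (ENSMUSG00000065513.1) lies on the plus strand at chr9:119031796-119031885, in intron 5 of 7 of Ctdspl. Mir26a-2 (ENSMUSG00000065430.1) lies on the plus strand at chr10:126995530-126995613, in intron 5 of 7 of Ctdsp2. Mir26b (ENSMUSG00000065468.1) lies on the plus strand at chr1:74394310-74394394, in intron 4 of 6 of Ctdsp1. The introns differed in size, with 3283 bases for Mir26a-1, 1946 for Mir26a-2 and 564 for Mir26b. Mir26a-2 and Mir26b ended 241 and 245 bases before the next exon, and Mir26a-1 ended 1650 bases before it.

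**Figure D1:**
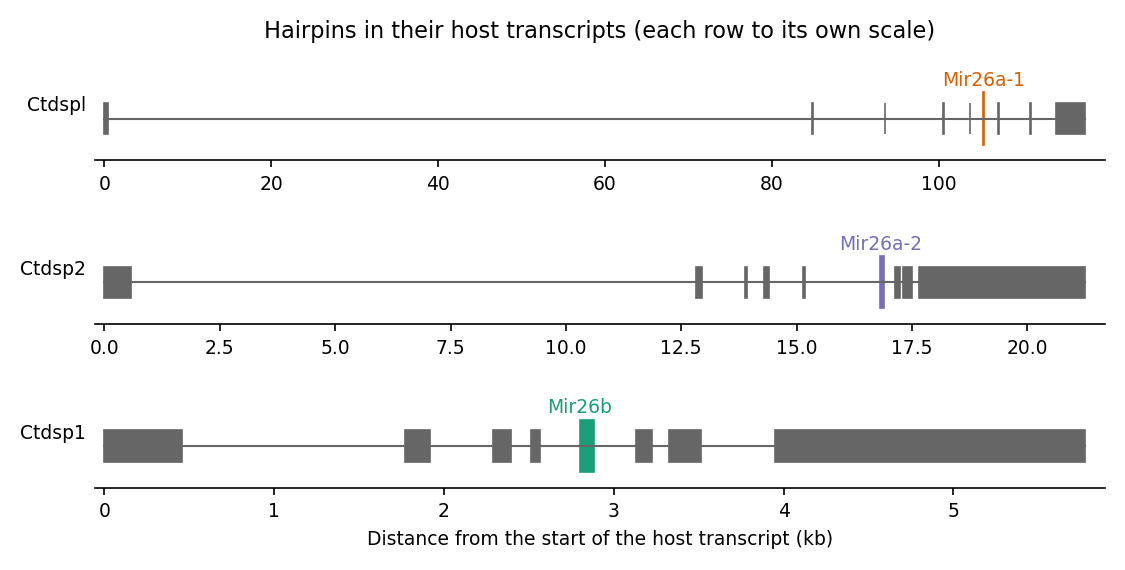
Position of each hairpin (coloured bar) and of the exons (grey boxes) in 1 principal coding transcript of its host, as distance in kb from the transcript's start, with each row to its own scale. Mir26a-1 and Mir26a-2 lie in intron 5 of 7 and Mir26b in intron 4 of 6.

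The hairpins are shown because 2 of them share an arm. The sequences are those of RefSeq on GRCm38.p6, in which all 3 members were matched by symbol, and capitals mark the 2 mature arms, 5p first.
Mir26a-1: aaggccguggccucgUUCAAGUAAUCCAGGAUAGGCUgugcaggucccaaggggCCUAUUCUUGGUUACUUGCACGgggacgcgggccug
Mir26a-2: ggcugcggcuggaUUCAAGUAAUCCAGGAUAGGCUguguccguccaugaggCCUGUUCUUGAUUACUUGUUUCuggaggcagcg
Mir26b: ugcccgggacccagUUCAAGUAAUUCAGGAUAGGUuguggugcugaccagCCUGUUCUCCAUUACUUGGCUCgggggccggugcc

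The mature sequences follow, with the seed in capitals.
miR-26a-5p: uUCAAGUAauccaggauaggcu
miR-26b-5p: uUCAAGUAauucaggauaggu
miR-26a-1-3p: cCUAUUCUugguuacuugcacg
miR-26a-2-3p: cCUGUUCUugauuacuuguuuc
miR-26b-3p: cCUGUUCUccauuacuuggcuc

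The 5p arms of all 3 hairpins carry 1 seed, UCAAGUA, and among 1738 mature entries of the RefSeq table no other hairpin carries it. The 5p arm is identical in Mir26a-1 and Mir26a-2. Counting from 1 at the 5′ end, miR-26b-5p differs from it by C11U and C21U over the 21 bases compared and is 1 base shorter. The 3p arms are all different. That of Mir26a-2 differs from that of Mir26a-1 at 6 of 22 positions, by A4G, G11A, C19U, A20U, C21U and G22C. Since A4G lies in the seed, the 3p seed of Mir26a-1 is not that of Mir26a-2 and Mir26b, which share CUGUUCU. That 3p seed also occurs in Mir7039, which had 0 CPM in both pups, and in Mir6932, at 0.664 CPM in pup 1 and 0.391 CPM in pup 3.

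The reach of the shared 5p stretch bears directly on the counts, because the tables tally multi-mapping reads apart from the genes. Mir26a-1 and Mir26a-2 have 25 bases in common, from the first base of the 5p arm to 3 bases past its end. A read of the 5p arm within this stretch therefore matches both hairpins. The longest stretch Mir26b has in common with Mir26a-1 is 11 bases and with Mir26a-2 10 bases. Reads tallied as mapping to several places numbered 9673667 in pup 1 and 8171236 in pup 3, or 43.0% and 43.5% of all reads. How many of them were miR-26a-5p was not measured, and how such reads were defined is not stated, so the counts of Mir26a-1 and Mir26a-2 may fall short of the total of miR-26a.

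Mir26b supplied nearly all assigned miR-26 reads. Levels are given in CPM, counts per 1000000 assigned reads, of which there were 9037087 in pup 1 and 7678662 in pup 3. Mir26b had 117785 counts in pup 1 and 93882 in pup 3, which is 13034 CPM (95% exact Clopper-Pearson interval 12960 to 13108) and 12226 CPM (12149 to 12304). It ranked 14 in pup 1 and 15 in pup 3 among the genes of the tables. Its mean was 12630 ± 571 CPM (SD, n = 2), a spread of 4.52% of the mean.

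By assigned reads, Mir26a-2 stood far below Mir26b in both pups. It had 493 counts in pup 1 and 452 in pup 3, which is 54.6 CPM (49.8 to 59.6) and 58.9 CPM (53.6 to 64.5), with a mean of 56.7 ± 3.05 CPM (SD, n = 2). Mir26a-1 was the lowest member. It had 104 counts in pup 1 and 73 in pup 3, which is 11.5 CPM (9.40 to 13.9) and 9.51 CPM (7.45 to 12.0), with a mean of 10.5 ± 1.42 CPM (SD, n = 2). The order Mir26b, Mir26a-2, Mir26a-1 was the same in both pups, and the intervals of neighbours in that order did not overlap. Intervals cover counting error only.

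**Figure D2:**
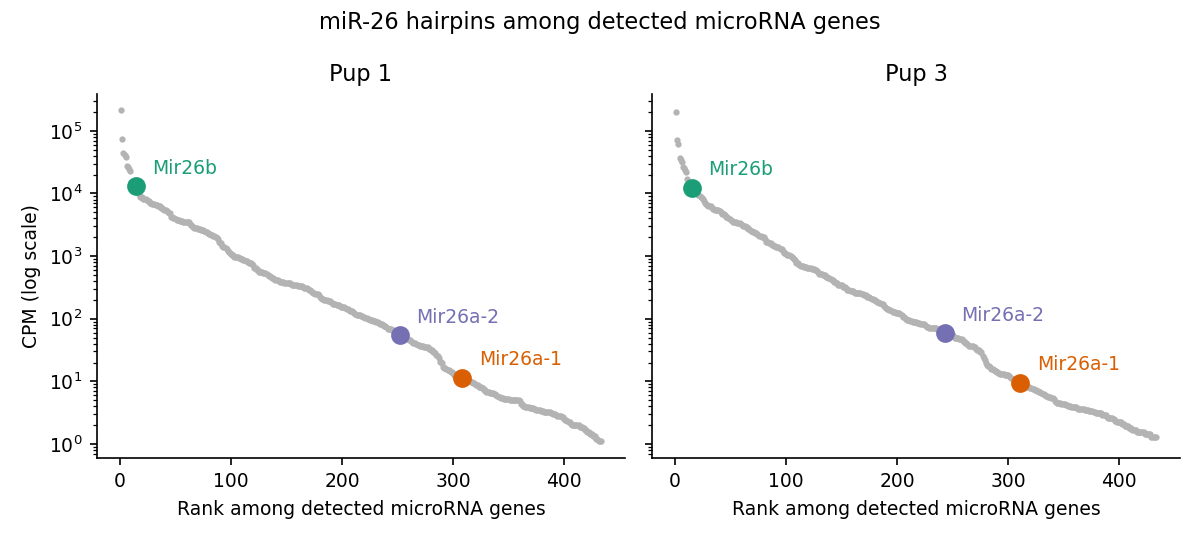
CPM (log axis) of every detected microRNA gene in each pup (grey points), against its rank, with the 3 miR-26 hairpins coloured. Mir26b sits near 13034 and 12226 CPM at the top of the curve, and Mir26a-2 and Mir26a-1 sit below 60 CPM in both pups.

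The hairpins are 90, 84 and 85 bases long for Mir26a-1, Mir26a-2 and Mir26b, and the order was also the same per hairpin base. In pup 1 the levels per base were 153 CPM for Mir26b, 0.649 CPM for Mir26a-2 and 0.128 CPM for Mir26a-1. In pup 3 they were 144, 0.701 and 0.106 CPM. The count of Mir26b was 239 times that of Mir26a-2 in pup 1 (95% exact interval 219 to 262) and 208 times in pup 3 (189 to 228). Mir26a-2 had 4.74 times the count of Mir26a-1 in pup 1 (3.83 to 5.91) and 6.19 times in pup 3 (4.83 to 8.04), and these intervals overlap. Together the members took 1.27% ± 0.0569 of the assigned reads (SD, n = 2). Both miR-26a hairpins made up 0.504% of the family's counts in pup 1 and 0.556% in pup 3. Any miR-26a-5p reads tallied as multi-mapping are outside these levels, ratios and shares. The values thus do not compare the totals of miR-26a and miR-26b. Multi-mapping reads of any origin numbered 81.7 per family read in pup 1 and 86.6 in pup 3.

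All reads of the members lay on the strand of the hairpin. None of the 73 reads of Mir26a-1 in pup 3, the fewest of any member and pup, was on the opposite strand, which allows a share of up to 4.11%. For Mir26b the limit was 0.00255% in pup 1 and 0.0032% in pup 3. Over all genes, opposite-strand reads made up 2.69% in pup 1 and 1.91% in pup 3.

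After scaling by edgeR's TMM factors, the largest estimated difference between the pups among the members was 1.24-fold, at Mir26a-2. Ratios set pup 3 over pup 1, and each gene with 20 or more counts in total was tested with a two-sided exact binomial test. The test compares these libraries, 1 per pup, against counting error and not conditions. It called 63% of the 460 genes tested at an adjusted p under 0.05, 30.2% higher and 32.8% lower in pup 3, so 2 calls among 3 hairpins is near the background.

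Mir26b had a log2 ratio of 0.11 (95% exact interval 0.10 to 0.12), with an adjusted p of 1.51e-64 by the exact binomial test with Benjamini-Hochberg adjustment. Scaled by total counts, this turned to -0.092 (adjusted p = 6.72e-48, same test), a scaling under which the median over the genes tested shifted by -0.20. The direction of Mir26b thus depends on the scaling, and the TMM value is a fold of 1.08. Mir26a-2 had a log2 ratio of 0.31 (0.12 to 0.50), a fold of 1.24, with an adjusted p of 0.00186 by the exact test, and under total counts 0.11 with an adjusted p of 0.333. Over the alternatives its adjusted p ran from 0.00131 to 0.333, and that of Mir26b from 1.92e-78 to 1.24e-44. Mir26a-1 had a log2 ratio of -0.073 (-0.53 to 0.37) and was not called, with an adjusted p of 0.824 by the exact test. Scaled by total counts, Mir26a-1 had -0.27 (adjusted p = 0.302, same test), the largest difference of the members under that scaling.

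Set beside the 433 genes that reached 10 counts in each pup, Mir26a-1 and Mir26b lay toward the small differences under TMM scaling. Mir26a-2 lay nearer the middle. A smaller absolute log2 ratio was found for 47 genes (10.9%) in the case of Mir26a-1, for 67 (15.5%) in the case of Mir26b and for 178 (41.1%) in the case of Mir26a-2. These shares describe the 2 libraries and depend on the same scaling. That of Mir26a-1 rests on 104 and 73 counts, with an interval of its log2 ratio from -0.53 to 0.37.

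**Figure D3:**
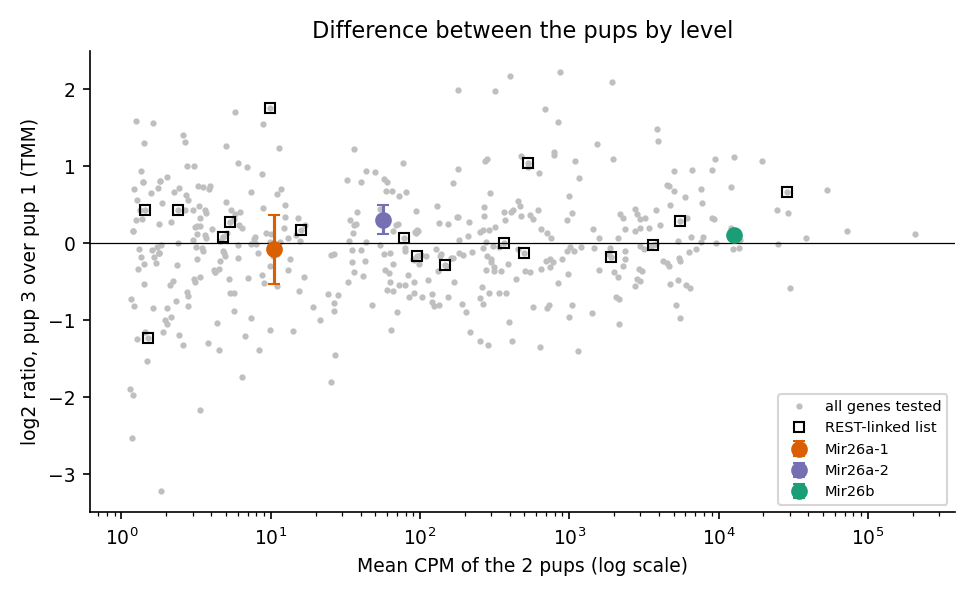
The log2 ratio of pup 3 over pup 1 after TMM scaling against the mean CPM (log axis) for all genes tested (grey), microRNAs linked to REST (open squares) and the miR-26 hairpins (coloured, with 95% exact binomial intervals). Mir26b at 0.11 and Mir26a-1 at -0.073 lie close to 0, and Mir26a-2 lies at 0.31.

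Mir26a-1 and Mir26a-2 belong to the microRNAs made from 2 loci with 1 identical arm, and the tables hold 20 of these with both arms at both loci in RefSeq. By the summed CPM of the loci, miR-26a was number 13 of the 20, with 66.1 CPM in pup 1 and 68.4 CPM in pup 3. Counts are per hairpin and do not separate the identical arm from the arm that is not shared. Reads of the identical arm may lie in the multi-mapping tally, in numbers that were not measured. The order of these microRNAs and the ratios between their loci therefore hold for assigned reads only. The brain-enriched miR-128 stood highest, with Mir128-1 at 5919 ± 1152 CPM and Mir128-2 at 2774 ± 333 CPM (SD, n = 2). For miR-181a, Mir181a-1 had 7826 ± 457 CPM while Mir181a-2 had 83.8 ± 24.9 CPM (SD, n = 2).

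The next were miR-125b, a relative of the worm lin-4, and miR-16, known for restraining the cell cycle. Mir125b-1 had 3833 ± 436 CPM and Mir125b-2 2756 ± 51.4 CPM, and Mir16-1 had 3920 ± 2068 CPM and Mir16-2 843 ± 531 CPM (SD, n = 2). The synaptic miR-138 followed, with 1086 ± 451 CPM at Mir138-1 and 530 ± 202 CPM at Mir138-2 (SD, n = 2). For miR-92a, of the miR-17-92 cluster and its paralog, Mir92-1 had 1048 ± 97.4 CPM and Mir92-2 33.5 ± 2.83 CPM (SD, n = 2). These 6 were taken for the highest summed CPM, so a locus above both miR-26a hairpins follows from that choice.

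**Figure D4:**
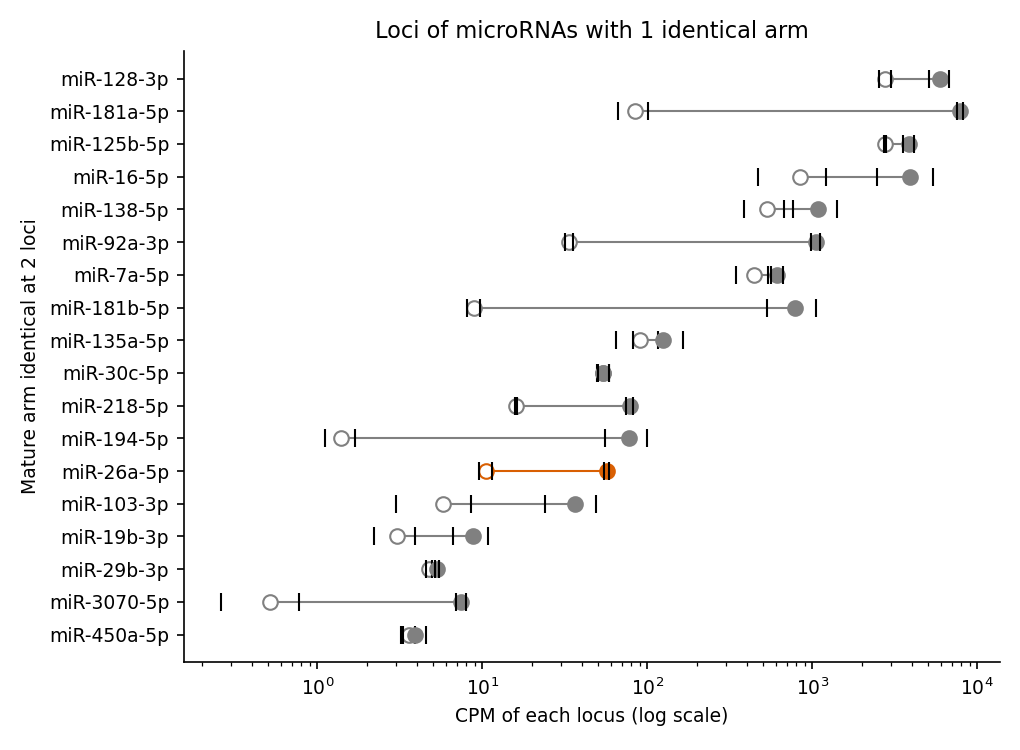
CPM (log axis) of the 2 loci of each microRNA with 1 identical arm, for the 18 with counts at both loci, with the higher locus filled, the lower locus open and ticks at the values of each pup. The miR-26a pair (orange) sits at 56.7 and 10.5 CPM, below the pairs of miR-128 and miR-125b and above that of miR-29b.

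The loci of miR-26a differed 5.40-fold in mean CPM. Among the 18 microRNAs with counts at both loci this ratio ran from 1.00 for miR-30c to 93.4 for miR-181a. The sum over both miR-26a loci had a log2 ratio of 0.050 in CPM, which is scaled by total counts, and of 0.25 under TMM scaling. The sum for miR-16 had 1.17 in CPM and 1.37 under TMM, and that for miR-135a -0.94 and -0.74. These are single values per pup, with no test.

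Sharing of arms was also set out over all hairpins with both arms in RefSeq, 582 in number. No arm was shared with another hairpin in 513 of them, Mir26b included, 1 arm in 53, Mir26a-1 and Mir26a-2 included, and both arms in 16. The median level in the class with 1 shared arm was 49.4 CPM in pup 1 and 50.01 CPM in pup 3, so Mir26a-2 lay just above the middle of its class and Mir26a-1 below it. In the class with no shared arm the medians were 2.77 and 2.34 CPM, and 11 of its 513 hairpins were above Mir26b in mean CPM. Both orders turn with the filter on low counts. Over hairpins that reached 10 counts in each pup, the median with 1 shared arm was 91.8 CPM as the mean of the pups, above both miR-26a hairpins, and that with no shared arm was 124 CPM. None of the 53 hairpins with 1 shared arm reached Mir26b by assigned reads, which leave out reads tallied as multi-mapping. An arm counts as unshared here only as far as the RefSeq table lists its copies.

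The hairpins nearest in level to each member were taken over the 2 pups among 432 others that reached 10 counts in each, by the larger of the log2 differences in CPM. Nearest to Mir26b were Mir99b (difference 0.099), Mir181c (0.10) and Mir149 (0.18). Nearest to Mir26a-2 were Mir155, an immune microRNA, at 0.099, Mir30c-2 at 0.14 and Mir7689 at 0.23. Nearest to Mir26a-1 were Mir486, abundant in red blood cells, at 0.061, Mir3078 at 0.11 and Mir3066 at 0.13. With 2 pups this is likeness of level and not of a pattern across conditions.

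By assigned reads, other microRNAs tied to REST ran from 1.45 CPM at Mir9-2 to 28970 CPM at Mir137 in the mean of the pups. The list holds 18 hairpins known as targets of REST or as regulators of REST or its phosphatases, and 17 were measured, since no identifier carried the symbol Mir9-1. Of these 17, 4 were called higher and 3 lower in pup 3 by the exact binomial test, and 10 were not called, beside 30.2% higher and 32.8% lower over all genes tested. The median log2 ratio was 0.077, beside -0.019 over the 460 genes tested. Scaled by total counts, 4 were called higher and 7 lower, where 66.1% of all genes tested were called. No called hairpin of the list changed direction, and Mir153, Mir212, Mir29c and Mir124a-2 were called lower in addition.

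Mir137, known for guiding how neurons mature, led the list with 24345 CPM in pup 1 and 33595 CPM in pup 3, and was the 1 listed hairpin above Mir26b. Its log2 ratio was 0.66 (95% exact interval 0.66 to 0.67). Mir139 had 5392 and 5735 CPM and was also called higher, with a log2 ratio of 0.29. Mir153, which targets synaptic vesicle genes, had 3901 and 3353 CPM, with a log2 ratio of -0.019 that was not called under TMM scaling.

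The activity-regulated Mir132 and Mir212 share a cluster. Mir132 had 2170 CPM in pup 1 and 1665 CPM in pup 3 and was called lower, with a log2 ratio of -0.18. Mir212 had 108 and 84.0 CPM and was not called under TMM scaling, with -0.16. Mir346, in an intron of a glutamate receptor gene, had 172 and 123 CPM and was called lower at -0.28.

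Mir9-3, a source of miR-9, which targets REST itself, had 382 CPM in pup 1 and 684 CPM in pup 3 and was called higher with a log2 ratio of 1.04. Mir29a had 551 and 441 CPM and was called lower at -0.12, while Mir29c had 390 and 341 CPM and was not called under TMM scaling, at 0.0035. Mir218-2 and Mir218-1, which share an arm as the miR-26a hairpins do, had means of 78.0 ± 5.16 and 16.0 ± 0.189 CPM (SD, n = 2), and neither was called. The 6 listed hairpins under 10 CPM included all 3 of Mir124a, whose product targets Ctdsp1, at means of 9.85, 1.497 and 2.41 CPM for Mir124a-1, Mir124a-2 and Mir124a-3. Both arms of Mir9-2 and Mir9-3 are shared with other hairpins. As with miR-26a, any reads of the Mir9 and Mir124a hairpins tallied as multi-mapping are not in these counts. How many there were was not measured.

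The labelled tissue was checked against marker microRNAs. The 8 measured forebrain neural markers summed to 32380 CPM in pup 1 and 44042 CPM in pup 3. Most of this was Mir137, at 24345 and 33595 CPM, followed by Mir128-1 at 5104 and 6733 CPM. Mir9-2 and the Mir124a hairpins each had 14.7 CPM or less in both pups. The 6 Hox-cluster markers of tissue behind the forebrain summed to 196 and 148 CPM, with 1 of them at 0. Markers of other cells were present, with endothelial Mir126a at 40491 and 36865 CPM, 2 choroid plexus and multiciliated markers at 11563 and 8530 CPM, 5 blood and microglial markers at 803 and 1073 CPM, and 3 oligodendrocyte markers at 652 and 676 CPM. Their part in the miR-26 levels was not tested. In whole tissue, fewer cells of a type and less RNA per cell cannot be told apart.

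The family's known link to its hosts was looked up in sequence, since no messenger RNA was measured. The bases that pair with the 5p seed, TACTTGA, were searched on the transcript strand in the longest 3′ UTR of 21013 coding genes (GENCODE M21), of which 9.67% held them, and 4.19% held them followed by A. Ctdsp2, the host of Mir26a-2, held 1 match in 3489 bases, while Ctdsp1 and Ctdspl held none. Rest held 1 match followed by A in 3448 bases, and 10.7% of 3′ UTRs within 20% of that length held such a match. Among 3′ UTRs within 20% of the length of Ctdsp2 23.1% held the match. The 2 sites are shown with the match in capitals, in Rest with the A that follows it, on the plus strand of GRCm38 at chr10:126997558-126997581 for Ctdsp2 and chr5:77283325-77283348 for Rest.
Ctdsp2: gttgctctTACTTGAtttgccaaa
Rest: tagtaaatTACTTGAAgaatttgc

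Of the other genes looked at for known links to miR-26 or REST, Rcor1, Ezh2 and Rb1 each held 1 match followed by A. Among 3′ UTRs within 20% of their lengths, 12.1%, 1.28% and 4.28% held such a match. All these genes, Ctdsp2 and Rest included, were chosen for such links, so the shares of 3′ UTRs are no test of their matches. A match is a description of the sequence and not a measured site.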

How the data were processed

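The authors deposited whole-number counts of reads per microRNA gene, made on assembly mm10 with annotation M4, per the file headers and notes. Aligner and counter: not given in the sources used here. Both tables have 3 count columns, and in all 1973 genes the first equals the sum of the others, read as sense and opposite strand. The first was used. The 4 tallies that name no gene stayed out of library sizes. They held 43.0% (several places), 14.9% (unmapped) and 1.85% (no gene) of reads in pup 1, and 43.5%, 14.4% and 1.26% in pup 3. Assigned reads were 40.2% of 22470992 and 40.8% of 18798326.

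Identifiers were named from GENCODE M21 (GRCm38, which mm10 names), where 1894 matched. RefSeq listed a mature sequence for 916 genes, which held 94.8% and 95.7% of assigned reads. Ratios used counts plus 0.5 and TMM factors of 1.07 and 0.933 (edgeR 4.0.16). Genes with 20 or more counts in total were tested by a two-sided exact conditional binomial test. Benjamini-Hochberg adjustment was made over the 460 genes tested, at 0.05. For 1 group, edgeR has no contrast to test. The test was checked on simulated data. Alternatives were DESeq2 1.42.0 size factors, total counts, the sense column, all reads as denominator, other minimums and each pup alone.

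The text names the members, the 3 hairpins nearest to each and REST-linked hairpins averaging at least 10 CPM. It also names the 6 microRNAs of highest summed CPM among those with 2 loci and 1 identical arm. Others were picked once values were known. The members and lists were chosen with earlier results of these data known. The 3′ UTR search was added after the files were seen. R 4.3.3, Python 3.11.15, scipy 1.17.1 and pandas 2.3.3 were used.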

Additional observations from a re-analysis of the deposited data

How the results depend on the processing

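Scaling decided the direction between the pups for Mir26b, whose log2 ratio of 0.11 became -0.092 under total counts, and the call of Mir26a-2, whose 0.31 became 0.11 (adjusted p = 0.333). Under DESeq2 size factors, the sense-strand column and no count minimum, all 3 members kept direction and call. The REST-linked list, with 17 tested, had 11 calls under total counts and 9 in the sense column in place of 7 under TMM. Over all genes, 304 of 460 tested were called under total counts (98 higher, 206 lower) and 284 of 447 in the sense column. Beside these stood 290 of 460 under TMM, 286 of 460 under DESeq2 size factors and 288 of 775 with no count minimum. With all reads as denominator the levels were 4.26, 23.0 and 5118 per 1000000 for Mir26a-1, Mir26a-2 and Mir26b, which follows from the larger denominator. With each pup alone they ran from 9.51 to 11.5, from 54.6 to 58.9 and from 12226 to 13034 CPM. Over hairpins that reached 10 counts in each pup the median CPM was 124 with no shared arm, 91.8 with 1 and 94.6 with 2, so the order of the classes depends on that filter. In the sense column the median with 1 shared arm was 50.9 CPM. Depth limits Mir26a-1 most, with 104 and 73 counts. No paired analysis was possible because there is 1 group.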
